A study of Mus musculus with 12 samples.

Results

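The Period genes *Per1*, *Per2* and *Per3*, the Cryptochrome genes *Cry1* and *Cry2*, and the Dec genes *Bhlhe40* (DEC1) and *Bhlhe41* (DEC2) encode the repressor proteins of the circadian clock. They were taken by symbol from the liver count data, in which each has its own entry, and make up 7 of the 38926 gene symbols counted. All 7 had enough reads to be tested.

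In the clock of mammalian cells, CLOCK and BMAL1 bind E-box elements and activate transcription, PER and CRY proteins assemble and return to the nucleus to inhibit them, and DEC1 and DEC2 compete for the same E-boxes. A further loop joins this one, in which the nuclear receptor REV-ERBα represses *Bmal1* (*Arntl*), *Clock* and *Npas2* through its own response elements. *Cry1* is known to be controlled by both kinds of element, and *Per1* is in addition induced by glucocorticoids and by cAMP signalling, whereas the abundance of PER and CRY proteins is set largely by phosphorylation and by ubiquitin ligases, which transcript counts do not show.

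RNA from livers was sequenced in 4 groups of 3 libraries: wild-type at ZT8 (zeitgeber time, hours after lights on, thus in the light phase), Rev-erbα-/- at ZT8, wild-type at ZT20 (in the dark phase) and Rev-erbα-/- at ZT20. All mice were labelled as 12 weeks old and of 129Ola/C57BL6 background. The study's methods describe males from heterozygous breeding kept in a light and dark cycle with free access to food. The gene is missing in the whole body, so that an effect of the liver and one of other organs cannot be told apart, and ZT8 and ZT20 are only single points of the cycle, which give neither a phase nor an amplitude. In whole liver, fewer cells of a type and less RNA per cell cannot be told apart. The labels number the replicates of each group without naming animals or batches, so that the p-values measure the spread between these libraries.

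Between 17641809 and 26060192 reads were counted on genes per library, of which 6796 to 11406 fell on the 7 repressor genes, and 3 reads corresponded to between 0.115 and 0.170 CPM (counts scaled to a common library size by the TMM method). The hepatocyte markers summed to 55612 to 100737 CPM and the adipocyte markers *Adipoq* and *Plin1* to at most 0.167 CPM. Kupffer cell markers summed to 262 to 420 CPM in wild-type at ZT8 and to 229.98 to 326 CPM in the other groups. Replicates 2 and 3 of wild-type at ZT8 stood apart from the rest. Their 4 acute-phase genes (*Saa1*, *Saa2*, *Orm2* and *Hp*) summed to 16450 and 21036 CPM, against 1701 to 2570 CPM in the other 10 libraries, and the changes of the 7 genes between genotypes at ZT8, and their calls between times in wild-type, are therefore also given with only replicate 1 of this group, an alternative chosen after seeing the data. In that fit the lone library is taken to vary like those of the other groups. The targeted gene *Nr1d1* was still counted in the knockout, at 63.0, 71.9 and 80.6 CPM at ZT8 against 129, 96.2 and 75.3 CPM in wild-type, and at 2.09 to 3.57 CPM against 1.86 to 2.28 CPM at ZT20. These ranges overlapped at both times, and because counts per symbol do not show which exons were read, *Nr1d1* does not check the genotype labels here. *Arntl*, the best known target of REV-ERBα, had a mean of 0.652 CPM in wild-type and 24.2 CPM in the knockout at ZT8.

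The promoters of 5 of the 7 genes were matched in RefSeq (assembly GRCm38.p6, the same build as mm10, from 250 bases before to 50 bases after the start of transcription). *Per2* and *Bhlhe40* have no entry. The 5 promoters are shown because the genes that changed most between day and night, and the one that changed with genotype, can be compared by the clock elements near their start. All are written 5′ to 3′ in the direction of the gene, with capitals for motif matches on either strand. The motifs searched on both strands were the E-box CACGTG, the E-prime box CACGTT, the D-boxes TTATGTAA and TTACGTAA, the cAMP response half-site TGACG and the REV-ERB half-site AGGTCA. None of the capital stretches below overlaps another.
*Cry1* (chr10:85185005-85185304, minus strand): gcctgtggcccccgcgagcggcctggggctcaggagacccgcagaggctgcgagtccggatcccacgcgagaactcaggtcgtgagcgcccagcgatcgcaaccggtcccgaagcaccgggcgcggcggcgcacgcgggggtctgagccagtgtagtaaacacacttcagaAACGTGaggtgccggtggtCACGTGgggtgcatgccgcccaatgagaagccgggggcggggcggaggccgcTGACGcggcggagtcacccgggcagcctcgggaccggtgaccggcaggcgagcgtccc
*Cry2* (chr2:92434020-92434319, minus strand): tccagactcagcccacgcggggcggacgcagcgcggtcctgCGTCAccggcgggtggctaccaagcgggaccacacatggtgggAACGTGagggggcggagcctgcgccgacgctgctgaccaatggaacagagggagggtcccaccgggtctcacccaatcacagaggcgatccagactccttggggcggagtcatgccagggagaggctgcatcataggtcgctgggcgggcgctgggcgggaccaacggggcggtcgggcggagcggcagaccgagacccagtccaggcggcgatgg
*Per1*, first of 2 starts (chr11:69098699-69098998, plus strand): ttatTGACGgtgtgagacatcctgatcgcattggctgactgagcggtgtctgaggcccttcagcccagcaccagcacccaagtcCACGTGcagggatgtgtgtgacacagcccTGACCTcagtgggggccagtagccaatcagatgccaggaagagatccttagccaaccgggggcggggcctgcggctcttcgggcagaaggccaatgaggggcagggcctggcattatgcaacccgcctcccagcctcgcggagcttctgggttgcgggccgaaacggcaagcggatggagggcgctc
*Per3* (chr4:151044616-151044915, minus strand): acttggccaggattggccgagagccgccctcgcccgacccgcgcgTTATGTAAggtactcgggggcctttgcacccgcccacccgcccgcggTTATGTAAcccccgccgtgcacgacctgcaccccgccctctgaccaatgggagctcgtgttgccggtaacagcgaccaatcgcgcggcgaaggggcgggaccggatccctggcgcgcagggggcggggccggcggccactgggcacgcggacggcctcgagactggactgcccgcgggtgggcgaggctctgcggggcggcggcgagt
*Bhlhe41* (chr6:145865371-145865670, minus strand): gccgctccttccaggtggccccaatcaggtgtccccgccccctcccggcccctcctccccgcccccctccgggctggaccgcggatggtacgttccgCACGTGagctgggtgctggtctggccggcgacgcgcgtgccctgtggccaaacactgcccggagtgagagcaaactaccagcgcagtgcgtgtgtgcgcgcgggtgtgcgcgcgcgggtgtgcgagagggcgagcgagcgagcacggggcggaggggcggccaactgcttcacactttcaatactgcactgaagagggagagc

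The *Cry1* promoter held an E-box that begins 60 bases before the start, an E-prime box on the opposite strand 79 bases before it and a cAMP half-site 8 bases before it. *Cry2*, its paralog, held an E-prime box (166 bases before the start) and a cAMP half-site (209 bases before it), both on the opposite strand, and no CACGTG in this window. The *Per1* promoter held an E-box 166 bases, a cAMP half-site 246 bases and, on the opposite strand, a REV-ERB half-site 137 bases before the start, and its second start (chr11:69099902-69100201) had a cAMP half-site 132 bases upstream. In *Per3* the matches were D-boxes of the form TTATGTAA, at 205 and 158 bases before the start, and in *Bhlhe41* a single E-box at 153 bases. Of the 32851 mouse promoters of the same length, 7.15% held the E-box, 4.68% the E-prime box, 1.06% a D-box, 20.8% the cAMP half-site and 16.3% the REV-ERB half-site. The half-sites are thus common, and a match says only that these letters are present. In this window the REV-ERB half-site was found for *Per1* and not for *Cry1*. Sequence outside the window was not searched, so a missing match does not show that a gene lacks the element.

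Of the 7 repressor genes, *Cry1* alone passed the test for a genotype effect by day. It was 3.99-fold higher in the knockout at ZT8 and did not pass at ZT20. At ZT8, 1 of the 7 genes was called by edgeR at an adjusted p-value under 0.05, beside 8.45% of the 14488 genes tested (4.40% higher and 4.04% lower in the knockout), and at ZT20 none of the 7 was called, beside 3.63% (2.09% higher and 1.54% lower). At an unadjusted p-value under 0.05 there were 2116 genes at ZT20 and 3404 at ZT8, and at ZT20 the other settings called at most 1 of the 7. The median log2 fold change of the 7 genes was -0.069 at ZT8 and -0.24 at ZT20, against 0.0018 and -0.00068 over all genes tested.

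**Figure D1:**
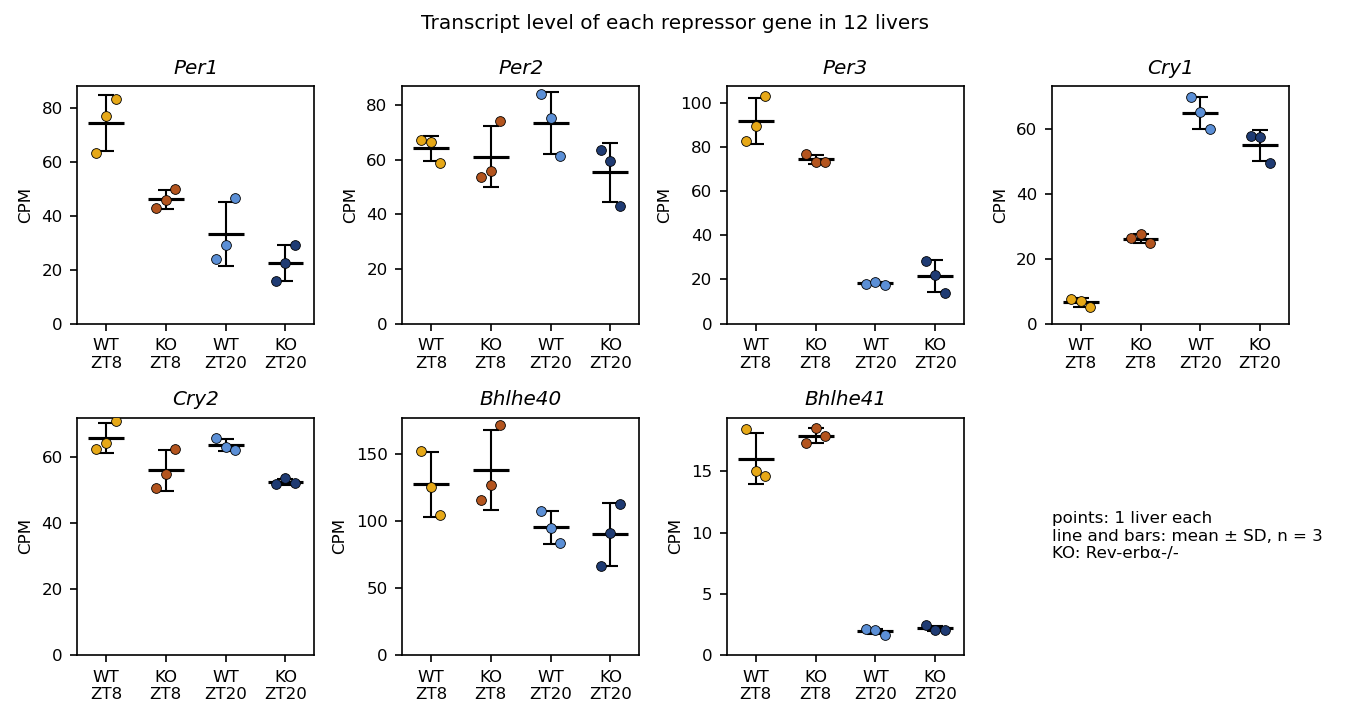
Transcript level (CPM, vertical axis from 0) of each repressor gene in the 12 libraries, grouped by genotype and time. Points are single livers, the horizontal line the mean and the bars the SD of 3. *Cry1* stands at 4.98 to 7.68 CPM in wild-type and 24.6 to 27.5 CPM in the knockout at ZT8, whereas *Bhlhe41* separates the times and not the genotypes.

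*Cry1* (chr10:85131700-85185064, minus strand, with no exon shared with another gene) encodes a flavoprotein that inhibits CLOCK and BMAL1 directly and acts late in the repressive phase. In wild-type liver it was read 193, 137 and 98 times at ZT8, which equals 7.68, 6.83 and 4.98 CPM. The knockout livers had 26.2, 27.5 and 24.6 CPM at the same time. Every knockout library thus lay above every wild-type one at ZT8, and by a wide margin relative to the spread within each group (6.496 ± 1.379 against 26.1 ± 1.44 CPM, SD, n = 3). The log2 fold change was 2.00 (SE 0.126, edgeR adjusted p = 1.45e-07), and *Cry1* ranked 9th of all genes by p-value in this comparison. It was 1.76 (adjusted p = 1.45e-05) with only replicate 1 of wild-type at ZT8.

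At ZT20 *Cry1* was abundant in both genotypes, with 69.7, 65.2 and 59.8 CPM in wild-type and 57.7, 57.3 and 49.4 CPM in the knockout. The knockout values here lay on the lower side without overlap, but the difference did not pass the test (log2 fold change -0.24, 95% interval -0.47 to -0.012, adjusted p = 0.308). The genotype effect at ZT8 exceeded that at ZT20 by 2.24 on the log2 scale (SE 0.166, interaction adjusted p = 1.07e-06), and by 2.00 with only replicate 1 of wild-type at ZT8 (adjusted p = 8.12e-06). *Cry1* was the 1 repressor gene of 7 called for this difference, beside 5.88% of all genes.

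*Cry2* (chr2:92403646-92434043, minus strand) encodes the other cryptochrome, whose mean level was close between the times and lower in the knockout at both. At ZT8 it had 62.3, 64.2 and 70.9 CPM in wild-type and 50.5, 54.7 and 62.5 CPM in the knockout. The ranges overlapped by a single library. At ZT20 it had 65.7, 63.1 and 62.1 CPM in wild-type and 51.8, 53.5 and 52.2 CPM in the knockout, where the genotypes did not overlap. The log2 fold changes were -0.23 at ZT8 (95% interval -0.40 to -0.066, adjusted p = 0.0820) and -0.28 at ZT20 (95% interval -0.45 to -0.11, adjusted p = 0.0722), so neither passed. This is the closest of the uncalled results. DESeq2 on the 12 libraries called *Cry2* at ZT20 (-0.28, adjusted p = 0.0470), as did edgeR on the 6 libraries of ZT20 (adjusted p = 0.0201) or without replicate 1 (0.0464) or 3 (0.0330) of the knockout at ZT8. In turn the ZT8 effect was called when replicate 1 of wild-type (-0.28, adjusted p = 0.0496) or replicate 3 of the knockout (-0.32, adjusted p = 0.0184) was left out, and was -0.16 (adjusted p = 0.599) with only replicate 1 of wild-type. Of the *Cry2* exons 4.67% are shared with the antisense transcript *D930015M05Rik*, which reached at most 1.79 CPM, and the counting did not use strand.

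*Per1* (chr11:69095217-69109960, plus strand), which encodes the Period protein known for its rapid induction by light, glucocorticoids and cAMP, had 63.0, 76.8 and 83.0 CPM in wild-type and 42.7, 45.7 and 49.8 CPM in the knockout at ZT8. The genotypes did not overlap at this time. The log2 fold change was -0.69 (SE 0.267, 95% interval -1.29 to -0.085, adjusted p = 0.159), which did not pass. In a fit of the 6 ZT8 libraries alone the size was much the same (-0.69) and the adjusted p-value was 0.00503. With only replicate 1 of wild-type at ZT8 in the fit of all groups, the change was -0.46 (adjusted p = 0.722). At ZT20 it had 24.0, 29.2 and 46.3 CPM in wild-type and 15.7, 22.3 and 29.2 CPM in the knockout, with overlap (log2 fold change -0.57, 95% interval -1.19 to 0.052, adjusted p = 0.392). Single libraries moved this value too, to -0.24 without replicate 3 of wild-type at ZT20 and -0.80 without replicate 3 of the knockout, and it was not called when any 1 library was left out (adjusted p from 0.227 to 0.745).

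*Per2* (chr1:91415982-91459324, minus strand) encodes the Period protein that serves as the main scaffold of the repressor complex. At ZT8 it had 67.3, 66.3 and 58.7 CPM in wild-type and 53.5, 55.7 and 74.0 CPM in the knockout. At ZT20 it had 83.9, 75.1 and 61.2 CPM in wild-type and 63.4, 59.6 and 42.9 CPM in the knockout. Genotypes overlapped at both times, with log2 fold changes of -0.069 at ZT8 (95% interval -0.44 to 0.30, adjusted p = 0.852) and -0.41 at ZT20 (95% interval -0.78 to -0.035, adjusted p = 0.285). The former was -0.14 (adjusted p = 0.889) with only replicate 1 of wild-type at ZT8.

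*Per3* (chr4:151003652-151044665, minus strand) encodes the third Period protein, which is not needed for rhythm generation. At ZT8 it had 82.5, 89.3 and 103 CPM in wild-type and 76.7, 73.2 and 73.1 CPM in the knockout, which did not overlap but did not pass the test (log2 fold change -0.30, 95% interval -0.72 to 0.11, adjusted p = 0.371) and was -0.16 (adjusted p = 0.884) with only replicate 1 of wild-type. At ZT20 the wild-type libraries were close together at 18.0, 18.97 and 17.5 CPM, and the knockout ones spread from 13.9 over 22.1 to 28.5 CPM (log2 fold change 0.25, 95% interval -0.20 to 0.69, adjusted p = 0.665). Single knockout libraries decided this value. Without replicate 3 of the knockout at ZT20 the effect was 0.48 (adjusted p = 0.0327) and the interaction -0.78 (adjusted p = 0.00648), against -0.55 (adjusted p = 0.307) with all libraries, and without replicate 1 the effect was -0.0087.

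The Dec genes did not pass the test for a genotype effect at either time. *Bhlhe40* (chr6:108660629-108666925, plus strand) encodes DEC1, a basic helix-loop-helix repressor that also responds to many other stimuli. At ZT8 it had 153, 125 and 104 CPM in wild-type and 115, 127 and 172 CPM in the knockout, and at ZT20 108, 94.9 and 83.3 CPM against 66.1, 91.5 and 113 CPM. Genotypes overlapped at both times, and the log2 fold changes were 0.12 (95% interval -0.38 to 0.62) and -0.083 (95% interval -0.58 to 0.42). *Bhlhe41* (chr6:145858243-145865558, minus strand), which encodes DEC2, had 18.4, 15.0 and 14.6 CPM in wild-type and 17.3, 18.6 and 17.9 CPM in the knockout at ZT8. By night both genotypes were near 2 CPM, with 2.09, 2.03 and 1.66 CPM in wild-type and 2.43, 2.03 and 2.05 CPM in the knockout, from 37 to 58 reads per library. Genotypes again overlapped, with log2 fold changes of 0.16 (95% interval -0.084 to 0.40) and 0.17 (95% interval -0.17 to 0.50). The ZT8 changes turned to -0.15 for *Bhlhe40* (adjusted p = 0.904) and -0.044 for *Bhlhe41* (adjusted p = 0.943) with only replicate 1 of wild-type at ZT8.

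**Figure D2:**
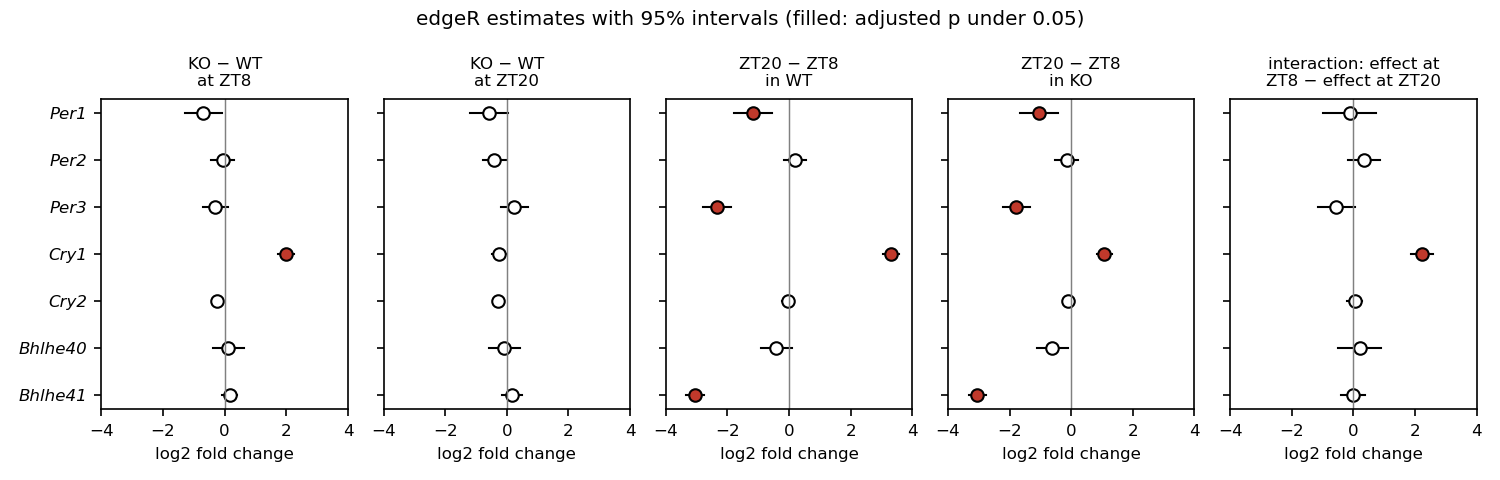
The edgeR log2 fold change of each repressor gene (horizontal axis, bars are 95% intervals) in the 5 comparisons, with filled points for an adjusted p-value under 0.05. Genotype effects are called for *Cry1* at ZT8 (2.00) and in the interaction (2.24), and time effects for *Per1*, *Per3*, *Cry1* and *Bhlhe41* in both genotypes.

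The comparison of ZT20 with ZT8 asked how far the genes change between day and night with and without REV-ERBα. In wild-type liver 4 of the 7 passed, *Cry1* higher and *Per1*, *Per3* and *Bhlhe41* lower by night, beside 27.7% of all genes (13.8% higher and 13.9% lower). The same 4 genes passed in the same directions in Rev-erbα-/- liver, beside 17.5% (8.79% higher and 8.67% lower). The median log2 fold change of the 7 was -0.42 in wild-type and -0.62 in the knockout, against -0.00021 and 0.0063 over all genes. The wild-type libraries of ZT8 serve both here and in the genotype comparison at ZT8, so these results are not independent of each other. With only replicate 1 of wild-type at ZT8, *Cry1* (3.07), *Per3* (-2.19) and *Bhlhe41* (-3.26) were still called between times in wild-type (adjusted p at most 0.00124).

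*Bhlhe41* had the largest fall of the 7 genes. It was 8.32-fold lower at ZT20 in wild-type (log2 fold change -3.06, SE 0.137, adjusted p = 5.66e-10) and 8.25-fold lower in the knockout (-3.04, SE 0.134, adjusted p = 2.14e-09). The genotype effect did not differ detectably between the times, with an interaction of -0.012 and a 95% interval of -0.41 to 0.39. *Per3* fell 5.05-fold in wild-type (-2.34, SE 0.201, adjusted p = 1.46e-05) and 3.45-fold in the knockout (-1.79, SE 0.197, adjusted p = 0.000207). For *Per1* the fall was smaller, 2.24-fold in wild-type (-1.16, SE 0.270, adjusted p = 0.0117) and 2.06-fold in the knockout (-1.04, SE 0.275, adjusted p = 0.0305). This is the least secure of the called changes. In wild-type it kept its direction but was no longer called with only replicate 1 of wild-type at ZT8 (-0.93, adjusted p = 0.202), and in the knockout it lost the call without any 1 of replicates 1, 2 and 3 at ZT8 (adjusted p = 0.0621, 0.0740 and 0.0814) or replicates 1 and 2 at ZT20 (adjusted p = 0.0751 and 0.0931).

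*Cry1* changed the other way. It rose 9.92-fold from ZT8 to ZT20 in wild-type (log2 fold change 3.31, SE 0.127, adjusted p = 1.27e-10) and 2.10-fold in the knockout (1.07, SE 0.113, adjusted p = 1.91e-05), and the test of this difference is the interaction given above. The smaller rise in the knockout came with a higher level at ZT8, and the knockout level at ZT8 (24.6 to 27.5 CPM) lay between the wild-type levels of ZT8 and ZT20 without overlapping either.

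*Per2*, *Cry2* and *Bhlhe40* did not pass in either genotype. *Per2* changed by 0.19 in wild-type (95% interval -0.18 to 0.57) and -0.14 in the knockout (95% interval -0.52 to 0.23). For *Cry2* the values were -0.048 (95% interval -0.22 to 0.12) and -0.091 (95% interval -0.26 to 0.078), the narrowest intervals of the 7 genes. *Bhlhe40* was -0.42 in wild-type (95% interval -0.92 to 0.083, adjusted p = 0.203) and -0.62 in the knockout (95% interval -1.12 to -0.12, adjusted p = 0.0914), and DESeq2 on the 12 libraries called the latter (-0.62, adjusted p = 0.0103), as did edgeR without replicate 3 of the knockout at ZT20 (-0.81, adjusted p = 0.0462). In wild-type, DESeq2 with shrinkage on the 6 libraries called it (-0.41, adjusted p = 0.0184), and with only replicate 1 at ZT8 the change was -0.69 (adjusted p = 0.218). Libraries of ZT8 and ZT20 also differed in other respects. Hepatocyte markers summed to 55612 to 87897 CPM at ZT8 and 81374 to 100737 CPM at ZT20, and alignments to more than one place amounted to 1.76 to 3.28 per gene read at ZT8 and 1.24 to 1.67 at ZT20, and their part in the time effects was not tested.

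Ratios of paralogs within a library do not depend on how libraries are scaled. The *Cry1* to *Cry2* read ratio was 0.123, 0.106 and 0.0703 in wild-type at ZT8 and 0.519, 0.503 and 0.394 in the knockout, a 4.81-fold difference. Replicate 1 of wild-type had the highest of its group's ratios, and it too lay below every knockout ratio. At ZT20 it was 1.06, 1.03 and 0.963 in wild-type and 1.11, 1.07 and 0.948 in the knockout. The genotypes were thus apart by day and interleaved by night (exact two-sided permutation p = 0.1 at ZT8, the smallest that 3 against 3 libraries allow, and 0.7 at ZT20, with adjusted values of 0.171 and 0.764 over the 12 ratio comparisons). From ZT8 to ZT20 the ratio was 10.5-fold higher in wild-type and 2.22-fold higher in the knockout, again without overlap (exact p = 0.1 each).

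The *Per1* to *Per2* ratio was 0.937, 1.16 and 1.41 in wild-type and 0.798, 0.820 and 0.673 in the knockout at ZT8, without overlap (1.52-fold lower in the knockout, exact p = 0.1). At ZT20 it ranged from 0.285 to 0.757 in wild-type and from 0.247 to 0.682 in the knockout, with wide overlap (exact p = 0.7). The *Bhlhe40* to *Bhlhe41* ratio was 7.13 to 8.32 in wild-type and 6.66 to 9.63 in the knockout at ZT8, and 46.7 to 51.5 and 27.2 to 55.0 at ZT20. It therefore separated the times in both genotypes (6.27-fold and 5.36-fold, exact p = 0.1 each) and overlapped between genotypes (exact p = 0.8 at ZT8 and 0.6 at ZT20).

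**Figure D3:**
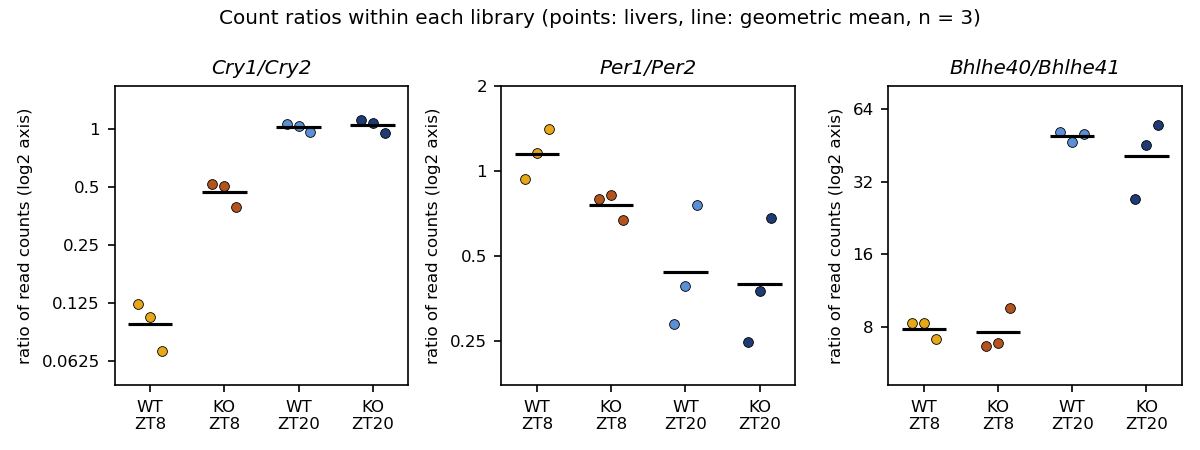
Ratio of the read counts of paralogs within each library (vertical axis, log2 scale), by genotype and time, with the geometric mean of 3 libraries as a line. The *Cry1* to *Cry2* ratio is 0.0703 to 0.123 in wild-type and 0.394 to 0.519 in the knockout at ZT8 and lies between 0.948 and 1.11 in all 6 libraries of ZT20.

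Levels of different genes can be compared only per length, here as CPM per kilobase of the union of exons in the GENCODE annotation of mm10. On this scale *Bhlhe40* was the most abundant repressor transcript in every group, at 27.1 ± 5.16 in wild-type and 29.4 ± 6.36 in the knockout at ZT8 and 20.3 ± 2.60 and 19.1 ± 4.94 at ZT20 (SD, n = 3). *Bhlhe41*, its paralog, was at 2.39 ± 0.309 and 2.67 ± 0.0903 at ZT8 and 0.287 ± 0.0354 and 0.323 ± 0.0343 at ZT20. As much as 19.05% of the *Bhlhe41* exons overlap a locus of uncertain status on the other strand, *Gm43909*, which the counts do not list, and 2.51% of the *Bhlhe40* exons an antisense transcript, *0610040F04Rik*, that reached at most 0.111 CPM.

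*Cry1* moved most in the order of levels. In wild-type at ZT8 it was the lowest of the 7 at 1.94 ± 0.413, where its range overlapped that of *Bhlhe41*. In the knockout at ZT8 it stood at 7.81 ± 0.430, with a range that overlapped those of *Per1* (8.18 ± 0.630), *Per3* (7.73 ± 0.211) and *Cry2* (8.84 ± 0.963). At ZT20 it ranked just below *Bhlhe40* in both genotypes, at 19.4 ± 1.48 and 16.4 ± 1.39, and the ranges of these neighbours overlapped. *Per1* followed *Bhlhe40* in wild-type at ZT8 (13.2 ± 1.82), with *Per2* (10.9 ± 0.799), *Cry2* (10.4 ± 0.713) and *Per3* (9.54 ± 1.09) below it, whose ranges overlapped one another. The range of *Per1* also overlapped those of *Per2* and *Cry2*. At ZT20 *Per1* (5.89 ± 2.08 and 3.98 ± 1.20) and *Per3* (1.89 ± 0.0790 and 2.24 ± 0.761) lay below *Per2* (12.5 ± 1.96 and 9.44 ± 1.87) and *Cry2* (10.1 ± 0.294 and 8.31 ± 0.139). With the length of the longest transcript in place of the union, *Bhlhe40* stayed at the top of every group, while *Cry2* moved up in all 4 groups and *Per3* at ZT8.

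**Figure D4:**
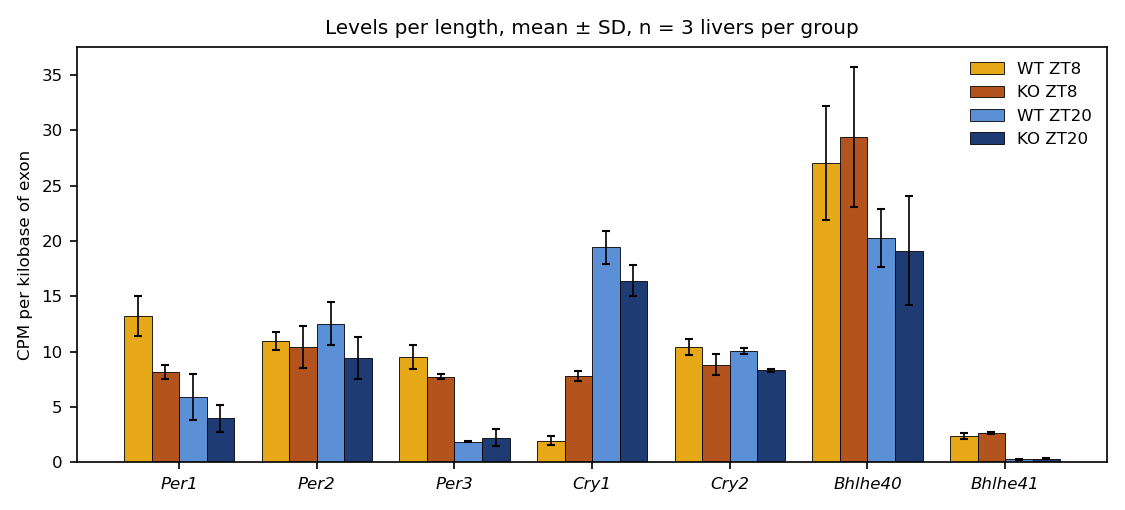
Level of each repressor gene per length (CPM per kilobase of exon, bars from 0 with SD of 3 livers) in the 4 groups. *Bhlhe40* has the tallest bar in each group, *Cry1* goes from 1.94 in wild-type at ZT8 to 19.4 at ZT20, and *Bhlhe41* is at 0.287 and 0.323 at ZT20.

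Over the 12 libraries, the repressor genes fell into different patterns. The likeness of a pair was measured as the root mean square difference of their log2 levels, each centred on its own mean, so that 0 is an identical pattern. *Per2* and *Cry2* were the closest pair (0.194), and *Per3* was closer to *Bhlhe41* (0.536) than to *Per1* (0.716) or *Per2* (1.10). *Cry1* was far from all the others, from 1.33 for *Per2* to 2.68 for *Bhlhe41*. Among all other genes tested, the nearest to *Cry1* were *Chka* (0.239), which encodes choline kinase α, and *Lonrf3* (0.241). *Chka* had means of 16.1, 97.3, 193 and 147 CPM in wild-type and knockout at ZT8 and wild-type and knockout at ZT20. The nearest to *Per3* was *Coq10b* (0.238) and then *Pik3ap1* (0.326), and the nearest to *Per1* was *Angptl4* (0.243), an inhibitor of lipoprotein lipase, followed by *Mtl5* (0.247). *Bhlhe41* was most like *E030030I06Rik* (0.350), which was at 0 by night, and *Nr1d2* (0.383), the gene of REV-ERBβ. For genes that varied little, the nearest patterns say less: *Rnf220* (0.0701) and *Atg2b* (0.0786) for *Cry2*, *Zbtb40* (0.140) and *Gm12258* (0.154) for *Per2*, and *Ubr7* (0.162) and *Gcc1* (0.164) for *Bhlhe40*.

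The activators that the repressors act on changed with genotype by day. Of *Arntl*, *Arntl2*, *Clock* and *Npas2*, 3 of 4 were called higher in the knockout at ZT8 (8.45% of all genes were called there) and none at ZT20 (3.63%). *Clock* went from 29.6 to 74.1 CPM at ZT8 (log2 fold change 1.32, adjusted p = 1.87e-07) and *Arntl* from 0.652 to 24.2 CPM (5.18, adjusted p = 2.23e-12). *Npas2*, which can stand in for *Clock*, had 0.0767 CPM in wild-type, under the level of 3 reads, and 0.661 CPM in the knockout. From ZT8 to ZT20 all 4 were called in wild-type, 3 higher and *Arntl2* lower, beside 27.7% of all genes. In the knockout *Arntl* and *Npas2* were called higher, beside 17.5% of all genes called. *Arntl2* had a mean of 0.0740 CPM in wild-type at ZT20, under the level of 3 reads. All 4 were called in the interaction, against 5.88% of all genes. *Arntl* (4.91) and *Clock* (1.19) with only replicate 1 of wild-type at ZT8 were still called at ZT8 and in the interaction. *Npas2* was then called neither at ZT8 (2.96) nor in the interaction (2.85). *Arntl2* was called neither in the interaction (-3.14) nor between times in wild-type (-2.81).

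Other genes known as E-box targets, the class to which *Per* and *Dec* genes belong, were mostly lower by night. Of 9 tested, 8 were called lower in wild-type and 7 in the knockout, and none higher, beside 13.9% and 8.67% of all genes called lower. *Dbp*, a D-box activator, changed by -5.73 in wild-type and -5.88 in the knockout on the log2 scale, and *Gm129*, an older symbol of *Ciart* and itself a repressor of CLOCK and BMAL1, by -4.35 and -4.07. *Nr1d1*, the targeted gene, is in this list (-5.58 and -4.64). Between genotypes 1 of the 9 was called at ZT8 (8.45% of all genes), *Wee1*, a kinase that delays mitosis, which was lower in the knockout (-1.33, adjusted p = 0.000197). At ZT20 1 was called (3.63% of all genes), *Nr1d2*, higher in the knockout (1.00, adjusted p = 0.0452). This call was near the threshold, and it was lost at the same size (1.00) with only replicate 1 of wild-type at ZT8. *Wee1* was also the 1 gene of the list called in the interaction (-1.37, adjusted p = 0.00318), beside 5.88% of all genes. *Wee1* was still called at ZT8 with only replicate 1 of wild-type (-1.38), and *Nr1d1* was then called lower as well (-0.85). Median log2 fold changes of the list were -0.20 at ZT8 and 0.030 at ZT20 between genotypes and -1.90 in wild-type and -1.67 in the knockout between times.

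**Figure D5:**
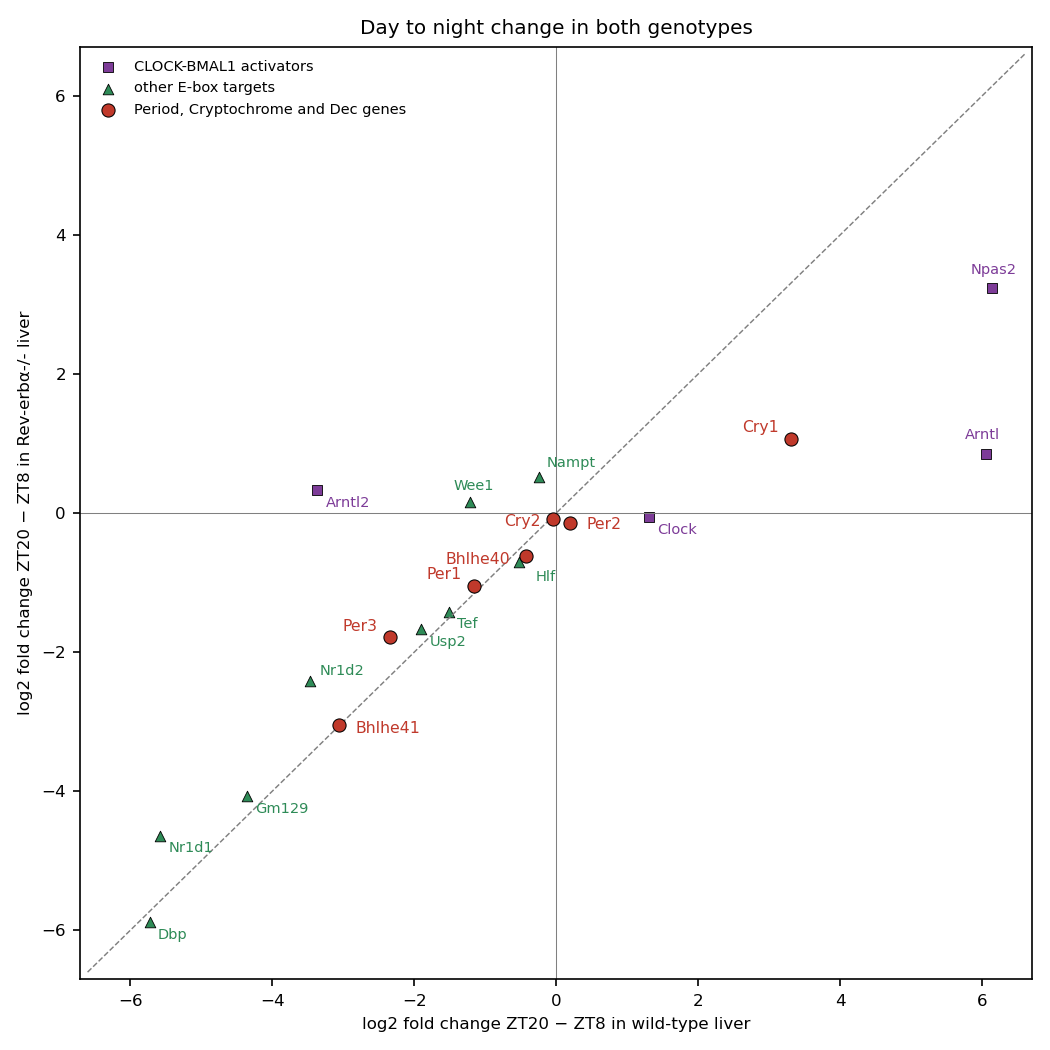
Log2 fold change from ZT8 to ZT20 in wild-type (horizontal axis) and Rev-erbα-/- liver (vertical axis) for the repressor genes (circles), other E-box targets (triangles) and the CLOCK and BMAL1 family (squares), with the line of equal change dashed. *Bhlhe41* lies on the line (-3.06 and -3.04) and *Cry1* below it (3.31 and 1.07), and the places of *Npas2* and *Arntl2* are uncertain since each fell under the level of 3 reads in a group.

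Genes whose products modify PER and CRY proteins were read against the same shares of all genes, 8.45% at ZT8, 3.63% at ZT20, 27.7% between times in wild-type and 17.5% in the knockout. None of the 12 kinases and phosphatases was called between genotypes at ZT8 or ZT20, and 3 were called between times in wild-type and 1 in the knockout. From ZT8 to ZT20, *Prkaa2* (AMP-activated kinase) was called higher in wild-type (0.25) and *Csnk2a2* (-0.45) and *Csnk2b* (-0.21), subunits of casein kinase II, lower, and *Gsk3b* was called higher in the knockout (0.33). *Csnk1d*, one of the main PER kinases, had group means of 83.4 to 92.2 CPM and was not called in any comparison. Of 10 ubiquitin ligase components and deubiquitinases, 1 was called at each time between genotypes and 3 between times in each genotype. *Btrc*, which encodes the β-TrCP1 protein that recognises phosphorylated PER, was the 1 called between genotypes. It was lower in the knockout at ZT8 (-0.33, adjusted p = 0.0167) and higher at ZT20 (0.32, adjusted p = 0.0333). Its means were 20.01 and 15.9 CPM at ZT8 and 15.3 and 19.1 CPM at ZT20, and the interaction was called (-0.65, adjusted p = 0.00238). From ZT8 to ZT20, *Det1* was called higher and *Usp2*, a deubiquitinase with a strong liver rhythm, lower in both genotypes (-1.90 and -1.67 for *Usp2*). *Btrc* was called lower in wild-type and higher in the knockout. In wild-type *Det1* (0.39) and *Btrc* (-0.36) kept their direction with only replicate 1 at ZT8 but were no longer called. With only replicate 1 of wild-type at ZT8, none of the 12 kinases and phosphatases was called between times in wild-type, and *Btrc* was not called at ZT8 (-0.30, adjusted p = 0.264) but was in the interaction (-0.62, adjusted p = 0.0276).

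Among 11 partners of the repressor complex, *Sfpq*, an RNA-binding protein found with PER, was the 1 called between genotypes at ZT8 (0.39, adjusted p = 0.0128, beside 8.45% of all genes). None was called at ZT20 (3.63%), and *Sfpq* was the 1 called in the interaction (0.49, adjusted p = 0.0289, beside 5.88%). By time, *Gm129* was the 1 called in wild-type, where it was lower, beside 27.7% of all genes. In the knockout *Gm129* and *Sfpq* (-0.40) were called lower, beside 17.5% of all genes called. *Sfpq* was called neither at ZT8 (0.28, adjusted p = 0.353) nor in the interaction (0.38, adjusted p = 0.250) with only replicate 1 of wild-type at ZT8. *Nono*, *Ncor1* and *Hdac3* were not called in any comparison.

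*Per1* is known to answer to glucocorticoids and to cAMP, and other genes induced by these signals were looked at beside it. Of 10 glucocorticoid-induced genes, 3 were called at ZT8, where 8.45% of all genes were. *Cdkn1a* (p21) was higher in the knockout (3.78, adjusted p = 5.87e-06), as was *Tsc22d3* (GILZ; 0.55, adjusted p = 0.00558), and *Lcn2*, which is also an acute-phase gene, was lower (-6.03, adjusted p = 0.0381), in a comparison that holds the 2 wild-type libraries with high acute-phase genes. At ZT20 *Tsc22d3* was called lower (-0.42, adjusted p = 0.0457, beside 3.63% of all genes). *Tsc22d3* and *Cdkn1a* were called in the interaction, beside 5.88% of all genes. *Fkbp5*, a common marker of glucocorticoid action, was not called between genotypes (-0.35 at ZT8 and -0.11 at ZT20). Its change at ZT8 turned to 1.00 with only replicate 1 of wild-type at ZT8. By time, 7 of the 10 were called in wild-type, 3 higher and 4 lower, and 3 in the knockout, 1 higher and 2 lower, beside 27.7% and 17.5% of all genes. Of 9 genes induced by cAMP and CREB, *Crem* was called higher in the knockout at ZT8 (0.50, adjusted p = 0.00815) and *Ppargc1a* (-0.71, adjusted p = 0.00525) and *Junb* (-0.83, adjusted p = 0.00828) lower (3 of 9 against 8.45% of all genes), and none was called at ZT20 (3.63%). *Crem* was the 1 called in the interaction (0.62, adjusted p = 0.0198, beside 5.88% of all genes). With only replicate 1 of wild-type at ZT8 its interaction was 0.67 and no longer called. By time 3 were called in wild-type and 2 in the knockout (27.7% and 17.5% of all genes). Median log2 fold changes at ZT8 were 0.097 for the glucocorticoid list and -0.41 for the cAMP list. These medians were 0.33 and 0.071 with only replicate 1 of wild-type at ZT8, so that of the cAMP list changed sign. With only replicate 1 of wild-type at ZT8, a fit that called 2.29% of all genes there, *Cdkn1a* (3.60, adjusted p = 0.00325) and *Junb* (-1.07, adjusted p = 0.0123) were the genes of these lists still called at ZT8. *Tsc22d3* (0.34, adjusted p = 0.296), *Lcn2* (0.11, adjusted p = 0.960), *Crem* (0.56, adjusted p = 0.0715) and *Ppargc1a* (-0.54, adjusted p = 0.198) were not. In that fit 3 of the 10 glucocorticoid-induced genes were called between times in wild-type, beside 11.9% of all genes.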

How the data were processed

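Liver RNA of 12 mice (4 groups of 3) was sequenced by the authors from poly(A) libraries. The authors aligned reads to mm10 using TopHat, and HTSeq-count then assigned unique alignments to gene symbols (union, quality of at least 10, strand ignored). The deposited values are raw counts, one file per sample, with 38926 symbols and 5 summary lines. Reads outside genes equalled 8.50% to 9.95% and ambiguous reads 3.08% to 3.62% of each library's gene, outside and ambiguous reads together. Alignments to more than one place were not in this total, and the summary lines were left out.

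From these counts, genes were filtered with filterByExpr (14488 kept), scaled by TMM and fitted with edgeR 4.0.16 (R 4.3.3; quasi-likelihood, robust, 4 group means, 12 libraries). Benjamini-Hochberg adjustment was applied over all genes tested (threshold 0.05). The biological coefficient of variation was 0.123. Read ratios were tested with exact permutations (SciPy 1.17.1). Lengths came from GENCODE and promoters from RefSeq. The scripts were tested on simulated data. The named genes were all 7 repressor genes, at most 4 examples from each list (the largest changes among called genes, otherwise the most abundant) and the 2 genes most like each repressor gene. *Nono*, *Ncor1*, *Hdac3*, *Csnk1d* and *Fkbp5* were named after their values were seen. The genes and lists were chosen with earlier results of these data known, and a few list genes are not reported here. Alternatives were DESeq2 1.42.0, size factors, other filters, fits of 6 libraries, the replicate number as a block, and leaving out libraries. Intervals and floors cover counting and replicate error only.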

Additional observations from a re-analysis of the deposited data

Results flagged for a closer look

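The genotype effect on *Cry1* differed between the times. The effect at ZT8 minus that at ZT20 was 2.24 on the log2 scale in the interaction test, with 4.98 to 7.68 CPM in wild-type against 24.6 to 27.5 CPM in the knockout at ZT8 and 59.8 to 69.7 against 49.4 to 57.7 CPM at ZT20. It was between 2.09 and 2.38 when each library was left out in turn, and 2.00 (adjusted p = 8.12e-06) with only replicate 1 of wild-type at ZT8. The cause was not tested.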

How the results depend on the processing

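The 10 called log2 fold changes of the repressor genes gave 198 values under the alternatives, of which 190 kept direction and call, 8 lost the call and none changed direction. The 8 were all of *Per1* between times, including no filter in the knockout (-1.04, adjusted p = 0.060). *Cry1*, *Per3* and *Bhlhe41* lost none of their calls. The number of repressor genes called at ZT8 became 2 with edgeR or shrunken DESeq2 on 6 libraries and with the replicate block (*Per1*), and 1 to 2 when each library was left out. At ZT20 it became 1 with DESeq2 on 12 or 6 libraries, edgeR on 6 and the replicate block, and 0 to 1 with each library left out, and the interaction count was 1 to 2. Over all genes, same-numbered libraries did not deviate together (0 of 18 pairs above a correlation of 0.1, from -0.0832 to 0.0738). A correlation over all genes cannot decide for single genes whether the replicate numbers pair libraries. *Per1* rose from replicate 1 to replicate 3 in every group, and the *Cry1* to *Cry2* ratio fell. *Bhlhe40* shared no such order, since it fell in wild-type and rose in the knockout at both times. These orders were picked out after the values were seen, so they cannot decide the pairing either. With the block *Per1* was -0.68 at ZT8 (adjusted p = 0.00840) and -0.56 at ZT20 (adjusted p = 0.0443). Genes called at ZT8 numbered 1224, but 769 with edgeR on 6 libraries, 346 with only replicate 1 of wild-type at ZT8, and 542 to 1811 with each library left out (lowest without wild-type ZT8 replicate 2, highest without replicate 1, and 749 without wild-type replicate 3 and 607 without knockout replicate 2). With that replicate alone, 1795 of 4018 were called between times in wild-type and 493 of 852 in the interaction; fewer libraries entered. With each library left out, the counts were 239 to 656 at ZT20, 1566 to 2847 between times in the knockout and 493 to 1260 in the interaction, with the lowest of each without replicate 2 of a ZT20 group. Sign changes were limited to values that had not passed. With only replicate 1 of wild-type at ZT8 they were *Bhlhe40* -0.15 and *Bhlhe41* -0.044 at ZT8, *Cry2* 0.025 between times in wild-type, and *Per1* 0.11 and *Bhlhe40* -0.068 in the interaction. With each library left out they were at ZT8 *Per2* (-0.23 to 0.014) and *Bhlhe40* (-0.070 to 0.27), at ZT20 *Per3* (-0.0087 to 0.48) and *Bhlhe40* (-0.27 to 0.097), between times *Cry2* in wild-type (-0.097 to 0.0089) and *Per2* in the knockout (-0.25 to 0.019), and in the interaction *Per1* (-0.45 to 0.12), *Cry2* (-0.044 to 0.10) and *Bhlhe41* (-0.073 to 0.093). Where no cause is named, it was not tested. At 37 to 58 reads per library, *Bhlhe41* by night is, of the 7 genes, the level most limited by depth.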
